A study of Mus musculus with 12 samples.

Results

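In mouse heart ventricles, 84 genes were lower when a gene activator and its guide vector were present together, and near their wild-type level with the activator alone. They were chosen from 24390 rows of the expression table by a rule on normalized counts, which are read counts divided by a size factor for each library. The rule asked for a mean of 20 or more over the 6 wild-type libraries, a mean in the activator-only hearts between 0.8 times that mean and that mean divided by 0.8, and a mean in the hearts with both parts at most 0.6 times the activator-only mean. Every value in the hearts with both parts also had to lie below the lowest of the 9 control values. The numeric rule was met by 91 rows, of which 7 were left out by their symbol, and all 84 passed the filter on low values used for tests, a mean of 10 or more. The steps left 12142, 10483, 135 and 91 rows in turn. Because the rule used these values, the lower level of the 84 genes in the hearts with both parts is a description and carries no test.

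The hearts came from C57BL/6 mice aged 8 weeks. TG_AAV mice carried a transgene, driven by the heart muscle promoter of Myh6, for a Cas9 that cannot cut DNA joined to the activator VPR, and received the AAV9 vector that the labels call TRISPR and name with Mef2d. TG_saline mice carried the same transgene and received saline. WT_AAV mice had no transgene and received that vector, and WT_saline mice had neither. Each group held 3 libraries of total RNA from ventricles. The labels do not say whether libraries came from separate animals, so the p-values speak for the spread of these libraries, part of which may be technical. The Myh6 promoter limits the activator to heart muscle cells, whereas the RNA came from whole tissue.

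Mef2d codes for a transcription factor of the MEF2 family, which binds A- and T-rich sites beside muscle genes and is known for roles in heart remodelling. Dead Cas9 carrying VPR does not cut DNA and raises transcription of a gene to whose promoter guide RNAs bring it. The 84 genes include cell surface receptors and their ligands, adhesion and synapse proteins, the main ventricular gap junction protein, transporters, lipid and sugar enzymes, kinases and transcription regulators. In ventricle tissue, signals such as apelin and angiopoietin pass between vessel, support and muscle cells, while gap junctions carry the impulse between muscle cells.

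Mef2d, the gene named with the vector, had 1989, 2231 and 1897 normalized counts in TG_AAV, 833, 844 and 839 in TG_saline, 973, 1131 and 1102 in WT_AAV, and 999, 877 and 1178 in WT_saline. The 3 TG_AAV libraries were above all 9 controls. The libraries held 10233281 to 14911986 gene-assigned reads each. Muscle, vessel and connective tissue cells all contribute RNA, so that fewer cells of a type and less RNA per cell cannot be told apart. Myl7, an atrial light chain, was above 1000 normalized counts in TG_AAV 1, WT_AAV 1 and WT_AAV 3, with 1505, 2042 and 1693. It was also at 728 in TG_saline 1 and 258 in TG_saline 3, and at most 19.1 in the other libraries. Runs without the libraries above 1000 therefore kept TG_saline 1 and TG_saline 3. The 13 fibroblast markers summed to between 46624 and 49015 in TG_AAV, 33491 and 39603 in TG_saline, 32702 and 47106 in WT_AAV, and 32727 and 37357 in WT_saline. The 14 endothelial markers summed to between 18514 and 21338 in TG_AAV, 20764 and 22913 in TG_saline, 20960.0 and 25608 in WT_AAV, and 21659 and 26680.0 in WT_saline. The 11 mural cell markers summed to between 16557 and 17067 in TG_AAV, below the lowest control sum of 18028. The 8 adipocyte markers summed to between 129.5 and 153 in TG_AAV, below the lowest control sum of 164. By limma at an adjusted p of 0.05, against the average of the control groups, 6 of the 13 fibroblast markers were higher in TG_AAV and none was lower. Of the 14 endothelial markers 3 were lower, and of the 11 mural markers 1 was lower, with none higher in either list. Of all tested genes, 12% were higher and 9.69% lower. None of these fibroblast, endothelial or mural markers was at 0 in a whole group, and the part of cell composition in the lower levels of the 84 genes was not tested.

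Abca4, a lipid flippase best known from photoreceptors and given as the name gene of the group, fell outside the rule. It had 16.8, 17.9 and 23.1 normalized counts in TG_AAV, 179, 135 and 125 in TG_saline, 71.3, 152 and 64.3 in WT_AAV, and 133, 109 and 159.5 in WT_saline. Its TG_AAV to TG_saline ratio of 0.132 was among the lowest, with no overlap between TG_AAV and the controls, but its TG_saline mean was 1.27 times the wild-type mean, above the upper limit of the rule. It was therefore not counted among the 84.

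Promoter sequences were read for 58 of the 84 genes, 70 promoters in all, from the RefSeq table on GRCm38.p6, which holds 250 bases before and 50 after each annotated start. The 13146 promoters of tested genes in the same table served as the comparison. Both strands were searched for a MEF2 site and for a CArG box, the site of serum response factor, a MADS-box protein like MEF2, and for TATAAA (the TATA box), AGATAA (for GATA factors), CACGTG (an E-box), TGANTCA (AP-1), TGACGTCA (the cyclic AMP response element), GGAATG (TEAD factors) and AGGTCA (nuclear receptors). A match is a description of the letters and not a shown binding site. The 5 promoters below are shown because they are the ones of the 84 genes that hold a MEF2 site or a CArG box. Capitals mark every motif found, on either strand.
6820408C15Rik, chr2:152436240-152436539, plus strand: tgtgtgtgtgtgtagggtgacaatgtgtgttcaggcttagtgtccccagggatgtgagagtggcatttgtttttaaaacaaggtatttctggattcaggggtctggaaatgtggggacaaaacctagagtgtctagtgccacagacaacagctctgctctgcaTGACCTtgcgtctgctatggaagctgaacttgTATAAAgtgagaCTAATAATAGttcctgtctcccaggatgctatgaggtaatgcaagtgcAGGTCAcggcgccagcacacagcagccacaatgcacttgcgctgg
Fhl1, chrX:56779433-56779732, plus strand: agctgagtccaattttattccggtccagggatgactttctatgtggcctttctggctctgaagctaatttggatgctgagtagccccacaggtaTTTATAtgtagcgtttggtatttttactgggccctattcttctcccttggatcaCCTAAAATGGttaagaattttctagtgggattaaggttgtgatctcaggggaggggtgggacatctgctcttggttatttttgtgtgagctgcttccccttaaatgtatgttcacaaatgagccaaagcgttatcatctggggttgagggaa
Gm9895, chr19:29067051-29067350, plus strand: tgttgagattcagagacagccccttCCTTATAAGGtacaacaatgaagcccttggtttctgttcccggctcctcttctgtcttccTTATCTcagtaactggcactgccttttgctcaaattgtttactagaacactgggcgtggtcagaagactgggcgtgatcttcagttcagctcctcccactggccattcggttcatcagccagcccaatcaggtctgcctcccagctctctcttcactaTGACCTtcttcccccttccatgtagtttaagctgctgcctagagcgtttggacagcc
Lclat1, chr17:73107735-73108034, plus strand: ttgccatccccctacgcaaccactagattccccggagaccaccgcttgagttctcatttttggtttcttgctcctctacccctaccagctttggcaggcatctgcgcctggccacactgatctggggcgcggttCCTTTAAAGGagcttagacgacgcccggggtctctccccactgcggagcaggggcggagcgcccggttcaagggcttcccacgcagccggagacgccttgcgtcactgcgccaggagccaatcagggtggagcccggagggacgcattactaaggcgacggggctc
Lurap1l, chr4:80910436-80910735, plus strand: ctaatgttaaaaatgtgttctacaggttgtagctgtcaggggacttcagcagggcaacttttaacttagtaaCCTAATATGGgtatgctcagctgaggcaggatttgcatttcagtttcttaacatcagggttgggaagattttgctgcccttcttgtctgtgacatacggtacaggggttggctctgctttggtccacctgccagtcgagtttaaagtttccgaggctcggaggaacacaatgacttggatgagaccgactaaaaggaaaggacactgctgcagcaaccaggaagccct
The MEF2 site was found in 1 of the 70 promoters, that of 6820408C15Rik, which is 1.43% against 1.91% of all tested promoters. It lies from 43 to 34 bases before the start, next to a TATAAA. The CArG box was found in 4 promoters, those of Fhl1, Gm9895, Lclat1 and Lurap1l, or 5.71% against 1.32%. In Fhl1, which has a second promoter in the table without any of the motifs, the box lies 102 to 93 bases before the start. TATAAA was found in 13 promoters, or 18.6% against 7.40%. The other motifs were found in 8.57% against 6.40% for AGATAA, 11.4% against 9.84% for CACGTG, 8.57% against 5.06% for TGANTCA, 1.43% against 2.90% for TGACGTCA, 10% against 12.4% for GGAATG and 8.57% against 12.3% for AGGTCA. The median ratio of observed to expected CpG was 0.537 in the promoters of the 84 genes and 0.743 in those of all tested genes. No test was made on these shares.

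Receptors and ligands made up 12 of the 84 genes, with TG_AAV to TG_saline ratios of at most 0.574 and a median of 0.438. These role groups were assigned by hand after the genes had been listed. Apln, the secreted peptide apelin, had 56.2, 64.8 and 50.1 normalized counts in TG_AAV, 175, 225 and 194 in TG_saline, 159, 128 and 93.2 in WT_AAV, and 282, 303 and 86.8 in WT_saline. In Apln the controls spread widely, and WT_saline 3 and WT_AAV 3 were nearest to the TG_AAV values. Angpt1, the ligand of the vessel receptor Tie2, had 171, 278 and 185 normalized counts in TG_AAV, 1102, 399.9 and 483 in TG_saline, 657, 519 and 721 in WT_AAV, and 1018, 1111 and 927 in WT_saline. TG_saline 1 was close to the WT_saline libraries in Angpt1, while the other TG_saline libraries were the lowest of the controls. The Angpt1 ratio was 0.319, and its TG_saline mean of 0.801 times the wild-type mean only just met the limit of 0.8.

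Prlr, the prolactin receptor, had 113, 39.9 and 36.6 normalized counts in TG_AAV, 212, 203 and 159 in TG_saline, 230.0, 199 and 144 in WT_AAV, and 217, 268 and 159.5 in WT_saline. TG_AAV 1 stood apart from the other TG_AAV libraries in Prlr, nearer to the lowest control than to them. Ephb1, an ephrin-B receptor, had 27.7, 35.9 and 36.6 normalized counts in TG_AAV, 73.5, 85.1 and 102 in TG_saline, 58.6, 90.3 and 90.02 in WT_AAV, and 81.1, 79.01 and 129 in WT_saline. P2rx6, a subunit of ATP-gated channels, had 28.4, 20.9 and 21.5 normalized counts in TG_AAV, 63.8, 41.98 and 63.3 in TG_saline, 75.9, 47.7 and 70.7 in WT_AAV, and 56.6, 52.7 and 61.9 in WT_saline. TG_AAV 1 was the lowest library in Ephb1 and the highest of its group in P2rx6. The receptors and ligands Il15, Lgr6, Adra1d, Met and Il13ra1 had ratios of 0.457, 0.482, 0.493, 0.521 and 0.574. Adra1d, the alpha-1D adrenergic receptor, held 33.5, 33.9 and 35.01 normalized counts in TG_AAV, against 66.7, 79.5 and 61.5 in TG_saline, and its 3 TG_AAV values were nearly equal.

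**Figure D1:**
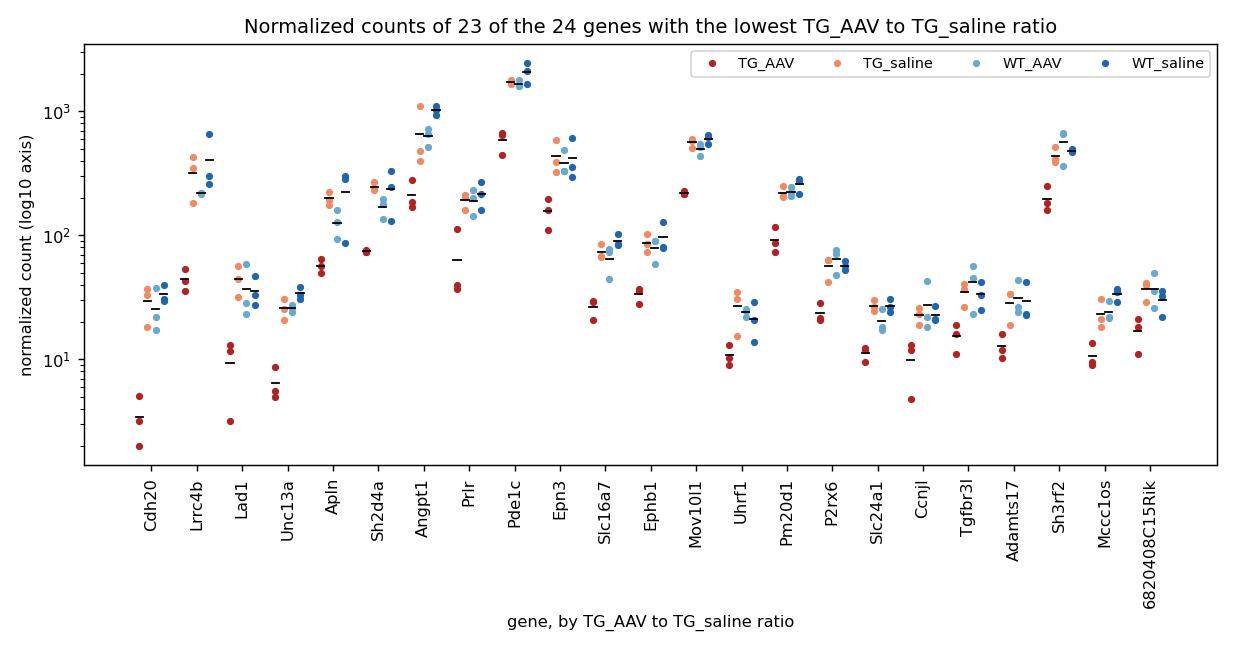
Normalized counts (log10 axis) of 23 of the 24 genes with the lowest TG_AAV to TG_saline ratio, 1 point per library and a bar at the mean of each group of 3, with TG_AAV in dark red, TG_saline in orange, WT_AAV in light blue and WT_saline in dark blue. In each gene the 3 TG_AAV points lie below all 9 control points, as the rule required, and in Cdh20 they lie between 1.99 and 5.11.

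Adhesion, junction and synapse genes made up another 12, with ratios of 0.117 to 0.599 and a median of 0.529. Cdh20, a cadherin and so a calcium-dependent adhesion protein, had the lowest ratio of the 84, 0.117. It had 5.11, 1.99 and 3.18 normalized counts in TG_AAV, 36.7, 33.1 and 18.1 in TG_saline, 21.8, 17.2 and 37.5 in WT_AAV, and 39.97, 30.9 and 29.3 in WT_saline. These values rest on 13 reads over the 3 TG_AAV libraries and 88 over the 3 TG_saline libraries, so that the counting interval of the ratio at 95% ran from 0.0635 to 0.223 and covers counting error only. Lrrc4b, a leucine-rich adhesion protein of excitatory synapses, had 43.03, 53.8 and 35.8 normalized counts in TG_AAV, 346, 432 and 181 in TG_saline, 219.6, 216 and 219 in WT_AAV, and 653, 301 and 260.5 in WT_saline. All 3 WT_AAV libraries of Lrrc4b were at nearly the same level, below each WT_saline library, and WT_saline 1 stood far above the rest. Its ratio was 0.138, with a counting interval from 0.117 to 0.165. Lad1, an anchoring filament protein of basement membranes, had 11.7, 12.95 and 3.18 normalized counts in TG_AAV, 31.9, 56.3 and 44.3 in TG_saline, 23.00, 28.4 and 58.9 in WT_AAV, and 33.3, 27.5 and 46.7 in WT_saline. TG_AAV 3 was the lowest library in Lad1, and WT_AAV 1 was the control nearest to TG_AAV.

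Unc13a, which primes synaptic vesicles for release, had 8.75, 4.98 and 5.57 normalized counts in TG_AAV, 30.9, 25.4 and 20.8 in TG_saline, 24.1, 27.4 and 25.7 in WT_AAV, and 33.3, 30.9 and 37.99 in WT_saline. All WT_AAV values of Unc13a lay below all WT_saline values, and TG_saline 3 was the lowest control. Gja1, which codes for connexin 43, the main gap junction protein of ventricular muscle, was the second most abundant of the 84 genes by normalized count. It had 3356, 3634 and 2647 normalized counts in TG_AAV, 5892, 6191 and 4459.8 in TG_saline, 4764, 4631 and 5471 in WT_AAV, and 8301, 9308 and 4477 in WT_saline. WT_saline 1 and 2 stood above all other libraries in Gja1, whereas WT_saline 3 was at the level of the WT_AAV libraries and of TG_saline 3. Gja1 averaged 3212 ± 509 in TG_AAV and 5514 ± 925 in TG_saline (SD, n = 3 each), a ratio of 0.583. Lrfn4 and Lingo3, leucine-rich neuronal membrane proteins, and Pclo, a scaffold of the presynaptic zone, had ratios of 0.581, 0.499 and 0.458. Gsg1l, an auxiliary subunit of AMPA receptors, and Lamb3, a laminin chain, had 0.592 and 0.599. Pcdhga1 had a ratio of 0.560 and is uncertain, because the gamma protocadherins share exons.

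Transporters and lipid or sugar enzymes made up 11, with ratios of 0.363 to 0.591 and a median of 0.503. Slc16a7, a carrier of lactate and pyruvate, had 29.2, 20.9 and 29.4 normalized counts in TG_AAV, 85.1, 66.3 and 67.8 in TG_saline, 44.8, 73.1 and 77.2 in WT_AAV, and 84.4, 83.6 and 103 in WT_saline. Its lowest control was WT_AAV 1, and all 3 WT_AAV libraries were below the WT_saline libraries. Slc24a1, a sodium, calcium and potassium exchanger known from rod photoreceptors, had 12.4, 11.96 and 9.55 normalized counts in TG_AAV, 29.96, 26.5 and 24.4 in TG_saline, 18.4, 25.4 and 17.1 in WT_AAV, and 26.6, 24.05 and 30.4 in WT_saline. Pm20d1, a secreted enzyme that joins fatty acids to amino acids, had 86.1, 117 and 73.2 normalized counts in TG_AAV, 248, 208 and 205 in TG_saline, 244, 207 and 223 in WT_AAV, and 275, 285 and 216 in WT_saline. Slc24a1 stood near the lower limit of the rule's level, and Pm20d1 was several times higher with controls close together.

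Fuca2, a fucosidase, had 1114, 1004 and 1326 normalized counts in TG_AAV, 2845, 2344 and 1654 in TG_saline, 1912, 1782 and 1528 in WT_AAV, and 2135, 2205 and 2432 in WT_saline. All WT_AAV values were below all WT_saline values in Fuca2, and TG_saline 1 was the highest library. Entpd5, a nucleotidase of the endoplasmic reticulum, had 1696, 1527 and 1393 normalized counts in TG_AAV, 2811, 2628 and 2372 in TG_saline, 2964, 2575 and 2168 in WT_AAV, and 3489, 4674 and 2039 in WT_saline. Lclat1, an acyltransferase that remodels cardiolipin, had 1084, 1096 and 813 normalized counts in TG_AAV, 1878, 1730.1 and 1562 in TG_saline, 2696, 2046 and 1658 in WT_AAV, and 2216, 2517 and 1746 in WT_saline. Both showed the same order of WT_saline libraries, with WT_saline 2 highest and WT_saline 3 lowest. Their ratios of 0.591 and 0.579 were close to the limit of 0.6. Slc7a1, a carrier of arginine and lysine, held 365, 348 and 352 normalized counts in TG_AAV, against 656, 714 and 591 in TG_saline, with each group close together. Fitm1, which helps to form lipid droplets, Slc35f1 and Pfkfb3, a regulator of glycolysis, had ratios of 0.473, 0.462 and 0.573. Gstt2, at 0.575, is a glutathione transferase with close relatives, so that its reads may be shared. It lay just inside the rule, its highest TG_AAV value being 0.996 times its lowest control value.

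Genes of intracellular signalling made up 11, with ratios of 0.301 to 0.598 and a median of 0.538. Pde1c, a phosphodiesterase that calcium and calmodulin switch on, was the only one both among the 24 lowest ratios and among the 8 highest levels. It had 645, 672 and 444 normalized counts in TG_AAV, 1799.7, 1732 and 1660.1 in TG_saline, 1778, 1596 and 1609 in WT_AAV, and 2133, 2447 and 1647 in WT_saline. The controls of Pde1c lay close together apart from WT_saline 1 and 2, the highest. Pde1c averaged 587 ± 124 in TG_AAV and 1731 ± 69.8 in TG_saline (SD, n = 3 each), a ratio of 0.339. Its counting interval, which leaves out the spread between libraries, ran from 0.320 to 0.355. Sh2d4a, an adaptor with an SH2 domain, had 76.6, 72.7 and 73.99 normalized counts in TG_AAV, 243, 267 and 231 in TG_saline, 178, 196 and 135 in WT_AAV, and 245, 327 and 130.2 in WT_saline. The TG_AAV values of Sh2d4a were nearly equal, while WT_saline 3 and WT_AAV 3 were the lowest controls.

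Epn3, an epsin of endocytosis, had 195, 161 and 111 normalized counts in TG_AAV, 323, 592 and 391 in TG_saline, 331, 489 and 333 in WT_AAV, and 294, 611 and 357 in WT_saline. Sh3rf2, a protein with SH3 and RING domains, had 249, 161 and 183 normalized counts in TG_AAV, 409, 520.3 and 387 in TG_saline, 660.0, 673 and 361 in WT_AAV, and 493, 466 and 484 in WT_saline. In Sh3rf2 WT_AAV 3 was the lowest control and the other WT_AAV libraries were the highest. Stk39, a kinase that controls cation and chloride cotransporters, had 706, 704 and 703 normalized counts in TG_AAV, 1163, 1416 and 1185 in TG_saline, 1409.8, 1032 and 1507 in WT_AAV, and 1456, 1612 and 1247 in WT_saline. Its TG_AAV values were almost the same in the 3 libraries, and its lowest control was WT_AAV 2. Prkab1, a subunit of the energy sensor AMPK, held 193, 229 and 201 normalized counts in TG_AAV, against 361, 422 and 345 in TG_saline. The kinases Pim3 and Bmx had ratios of 0.544 and 0.586, the small GTPases Rasd2 and Rasl10b had 0.538 and 0.598, and Pirt, a regulator of the heat-sensing channel Trpv1 in neurons, had 0.472.

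Genes of transcription, RNA and the cell cycle made up 11, with ratios of 0.391 to 0.594 and a median of 0.513. Mov10l1, an RNA helicase of the germline that is also known from mouse heart under the name Champ as a gene activated by MEF2C, had 229, 215 and 214 normalized counts in TG_AAV, 577, 597 and 509.7 in TG_saline, 436, 550.0 and 515 in WT_AAV, and 617, 640.1 and 540.5 in WT_saline. The TG_AAV values lay close together in Mov10l1, and its controls were even, with WT_AAV 1 the lowest. Mov10l1 averaged 219 ± 8.33 in TG_AAV and 561 ± 45.6 in TG_saline (SD, n = 3 each), a ratio of 0.391. The table gives 1 value per gene symbol, so the heart form and the germline form were not analysed here. Uhrf1, which keeps DNA methylation in dividing cells, had 13.1, 8.97 and 10.3 normalized counts in TG_AAV, 34.8, 30.9 and 15.4 in TG_saline, 21.8, 25.4 and 24.6 in WT_AAV, and 28.9, 13.7 and 20.6 in WT_saline. Ccnjl, a cyclin-like gene, had 13.1, 11.96 and 4.77 normalized counts in TG_AAV, 26.1, 23.2 and 18.98 in TG_saline, 21.8, 42.6 and 18.2 in WT_AAV, and 21.1, 20.6 and 27.1 in WT_saline. In Uhrf1 the highest TG_AAV value came close to the lowest control, WT_saline 2. TG_AAV 3 was the lowest library in Ccnjl, and WT_AAV 3 was its lowest control.

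Rn45s, the ribosomal RNA precursor, was the most abundant of the 84 rows. It had 51995, 56772 and 57079 normalized counts in TG_AAV, 127040.1, 148378 and 59629.7 in TG_saline, 70500.2, 162463 and 146404 in WT_AAV, and 125191, 90209.9 and 218675 in WT_saline. TG_saline 3 and WT_AAV 1 were the controls nearest to TG_AAV in Rn45s, and WT_saline 3 was the highest. Rn45s took 0.478% to 0.545% of the reads in TG_AAV and 0.557% to 1.84% in the controls, and how well it is removed before sequencing can differ between libraries. Hand2, a transcription factor of ventricle development, held 199.8, 191 and 286 normalized counts in TG_AAV, against 501, 337 and 387 in TG_saline. The wild-type libraries held 879.7, 389 and 428 in WT_AAV and 344, 394 and 359 in WT_saline, where WT_AAV 1 stood far above the others. Fhl1, a LIM-domain protein of muscle whose promoter is printed above, held 568, 624 and 673 normalized counts in TG_AAV, against 1124, 1131 and 1017 in TG_saline, with each group close together. Bcl3, Nr0b2, Ier2, Gadd45a and Zik1, which act in the nucleus, had ratios of 0.513, 0.579, 0.594, 0.577 and 0.463.

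The remaining 27 genes were given no role here, and their ratios ran from 0.442 to 0.59997. Tgfbr3l, named for its likeness to a TGF-beta co-receptor, had 18.96, 15.9 and 11.1 normalized counts in TG_AAV, 40.6, 26.5 and 37.1 in TG_saline, 23.00, 45.7 and 56.8 in WT_AAV, and 33.3, 25.2 and 42.3 in WT_saline. Adamts17, a secreted metalloprotease, had 10.2, 11.96 and 15.9 normalized counts in TG_AAV, 33.8, 18.8 and 33.4 in TG_saline, 24.1, 26.4 and 43.9 in WT_AAV, and 23.3, 22.9 and 42.3 in WT_saline. In Adamts17 the highest TG_AAV value and the lowest control, TG_saline 2, differed little. Mccc1os had 9.48, 8.97 and 13.5 normalized counts in TG_AAV, 18.4, 20.99 and 30.7 in TG_saline, 21.8, 29.4 and 21.4 in WT_AAV, and 28.9, 36.6 and 34.7 in WT_saline. The row 6820408C15Rik, whose promoter holds the MEF2 site, had 21.2, 10.96 and 18.3 normalized counts in TG_AAV, 41.6, 39.8 and 28.9 in TG_saline, 35.6, 49.7 and 25.7 in WT_AAV, and 35.5, 21.8 and 32.6 in WT_saline. In 6820408C15Rik TG_AAV 1 lay just below WT_saline 2, the lowest control. Pcp4l1, named for Purkinje cell protein 4, had 758, 648 and 630.1 normalized counts in TG_AAV, 1410.2, 1263 and 1107 in TG_saline, 1429, 1357 and 1532 in WT_AAV, and 1287, 1144 and 1646 in WT_saline. Every control of Pcp4l1 was above 1000. Dnah7b, a dynein heavy chain with near-identical copies, had a ratio of 0.564 and is uncertain for that reason.

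**Figure D2:**
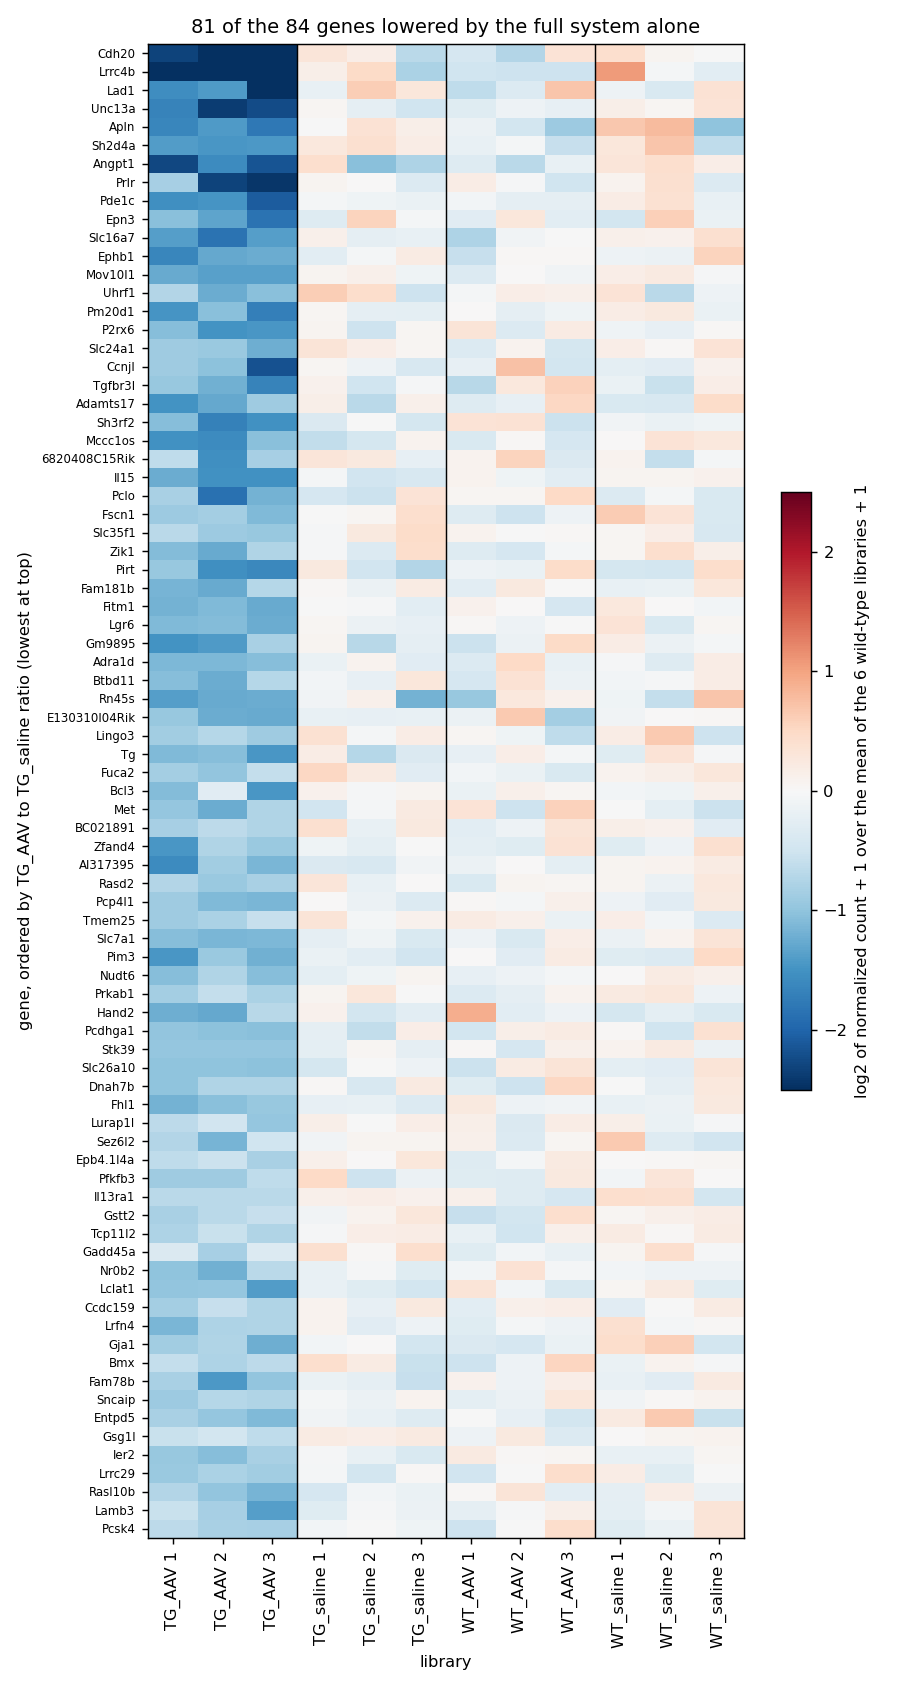
Level of 81 of the 84 genes in each library, as log2 of normalized count + 1 over the mean of the 6 wild-type libraries + 1, with genes in rows from the lowest TG_AAV to TG_saline ratio (Cdh20) at the top to the highest (Pcsk4) at the bottom, and libraries in columns by group. The colour scale stops at 2.5 in either direction. Blue marks lower and red marks higher levels, and the 3 TG_AAV columns are blue throughout because the rule required it.

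Within the limits of the rule, the TG_AAV to TG_saline ratios had a median of 0.516, with 3 genes below 0.2, 6 below 0.3, 14 below 0.4 and 39 below 0.5. The wild-type mean ran from 20.4 for Gm9895 to 135574 for Rn45s, with a median of 133 in the 84 genes, against 241 for all 13030 tested genes. It was below 50 in 21 of the genes and at 1000 or more in 12. The coefficient of variation over the 9 controls had a median of 20.7% in the 84 genes, against 13.6% in all tested genes. The lowest TG_AAV value was in library 1 for 24 genes, library 2 for 27 and library 3 for 33. The rule asked every TG_AAV value to lie below the controls, so these counts only describe the order within TG_AAV. The control nearest to TG_AAV was WT_AAV 1 for 19 genes, TG_saline 3 for 14, TG_saline 2 for 13, and WT_saline 1 or 2 for 3 each. Of all tested genes, 7.26% had every TG_AAV value below every control value, a share from which nothing is read because the rule used it.

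Near the limits, the ratio was 0.59997 for Pcsk4, 0.599 for Lamb3 and 0.598 for Rasl10b inside, and 0.601 for Tnip3, 0.604 for Bcl6b and 0.605 for Crip2 outside. At the upper limit for TG_saline, Gadd45a, Sh2d4a and Lad1 were inside with 1.23, 1.22 and 1.22 times the wild-type mean, and Kbtbd8, Abca4 and Ndnf were outside with 1.26, 1.27 and 1.30. At the lower limit Angpt1, Lclat1 and Fam78b were inside with 0.801, 0.803 and 0.804, and Maob, Dclk2 and Whrn were outside with 0.799, 0.797 and 0.787. The rows missed by that limit alone outnumbered those missed by the upper one, with 40 rows against 6. By wild-type mean, Gm9895, Uhrf1 and Pcsk4 were inside with 20.4, 22.5 and 23.4, and Prr29, 6430710C18Rik and Pcdhb4 were outside with 19.5, 17.6 and 15.6. For the overlap, the highest TG_AAV value over the lowest control value was 0.996 in Gstt2, 0.977 in Sez6l2 and 0.974 in Gadd45a inside, and 1.01 in Nrg2 and 1.05 in Sv2a outside.

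**Figure D3:**
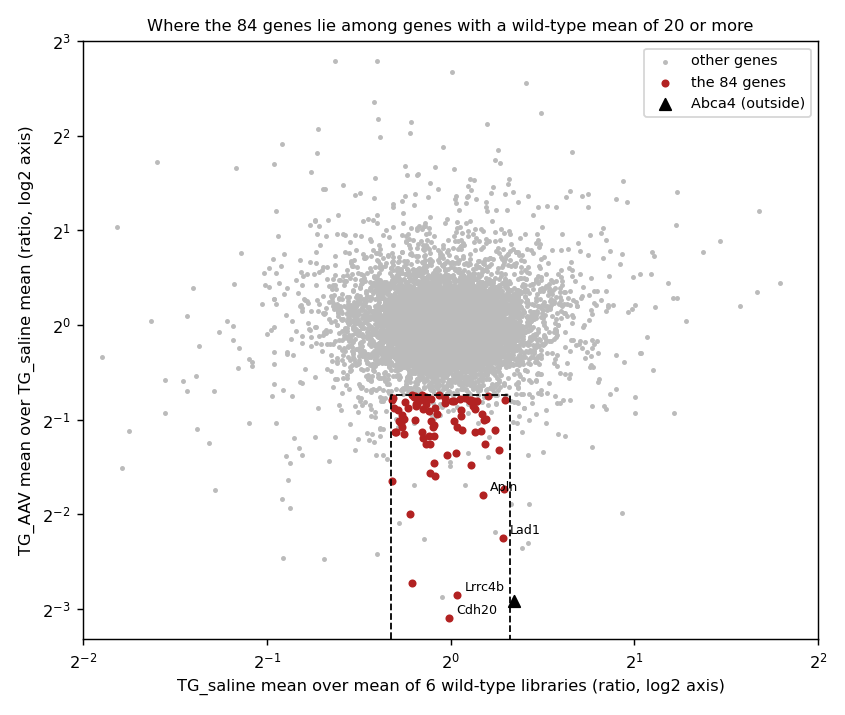
Ratio of the TG_AAV mean to the TG_saline mean (vertical, log2 axis) against the ratio of the TG_saline mean to the mean of the 6 wild-type libraries (horizontal, log2 axis), 1 point per gene with a wild-type mean of 20 or more. The dashed box is the rule, at 0.6 on the vertical axis and at 0.8 and its inverse on the horizontal axis, red points are the 84 genes, and Abca4 (triangle, 1.27 and 0.132) lies just outside its right edge. Grey points inside the box overlap with a control value or were left out by their symbol.

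When the rule was applied again with each library left out in turn, 32 of the 84 genes were chosen all 12 times, among them Cdh20, Prlr, Pde1c, Mov10l1 and Fhl1. These repeats used the values that chose the genes, and leaving out a library cannot create an overlap. Whether a gene was kept thus shows its distance from the limits on means and is not a test. Fam78b was chosen least often, 6 times. The number of genes chosen ran from 76 without TG_saline 1 to 106 without TG_AAV 1. Without the 3 libraries rich in Myl7, TG_AAV 1, WT_AAV 1 and WT_AAV 3, the rule chose 118 genes, of which 70 were among the 84, and without WT_AAV 2, WT_AAV 3 and WT_saline 3 it chose 100, of which 71 were among the 84. Both choices of libraries were made after the data had been seen. The mirror rule for genes higher with both parts chose 123.

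The vector in hearts without the activator was the only comparison of groups that the choice of the 84 genes left for a test. The rule still touches it, since it asked every control value to lie above TG_AAV. No gene passed an adjusted p of 0.05 by limma for WT_AAV against WT_saline, which is 0% of the 13030 tested and 0 of the 84, and the smallest adjusted p among the 84 was 0.992. The median log2 difference was -0.07 in the 84 genes and -0.01 in all tested genes. At an unadjusted p under 0.05 there were 8 of the 84, all lower in WT_AAV, beside 3.94% of all tested genes in either direction and 1.96% lower. The edgeR quasi-likelihood test called 0 genes and DESeq2 called 11, none of them among the 84. This count depended on the libraries entered. Without WT_AAV 2, WT_AAV 3 and WT_saline 3, which an earlier analysis of these data had set apart, limma called 45 genes, again 0 of the 84, with WT_AAV 1 as the one WT_AAV library, assumed to vary like the other groups. On the first principal component of the wild-type libraries, which held 31.8% of their variance, WT_AAV 3 and WT_saline 3 lay at -29.8 and -21.3, whereas WT_AAV 2 lay at 6.69 among the other libraries, between 3.15 and 26.2.

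The 8 genes, named after their values were seen, were Fscn1, Mov10l1, Tcp11l2, Angpt1, Lrrc4b, Fuca2, Slc16a7 and Gja1. Lrrc4b differed by -0.77 ± 0.33 on the log2 scale (SE), Angpt1 by -0.70 ± 0.30, Gja1 by -0.51 ± 0.22 and Mov10l1 by -0.26 ± 0.11. The 3 WT_AAV values lay below the 3 WT_saline values in 10 of the 84 genes, beside 3.49% of all tested genes, and above them in 3, beside 2.57%. The 10 include Lrrc4b, Angpt1, Fuca2, Slc16a7 and Unc13a, and the 3 include Nr0b2 and Pclo. By means, WT_AAV was lower in 52 genes and higher in 32. Myl7 moved with this comparison, at 2042, 3.04 and 1693 in WT_AAV, against 8.88, 1.15 and 5.43 in WT_saline, and its part in these values was not tested. The atrial markers, 9 in all, summed to between 5995 and 12047 in WT_AAV and 4319.5 and 6060.3 in WT_saline, and the 8 adipocyte markers to between 210.04 and 579.8 in WT_AAV and 175 and 202 in WT_saline. The median log2 difference was 1.62 over the 8 atrial and 2.55 over the 4 adipocyte markers tested, none of which passed, and their part was not tested. Leaving out the libraries with Myl7 above 1000 left 0 of the 84 called, with 1 WT_AAV library that was assumed to vary like the other groups.

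**Figure D4:**
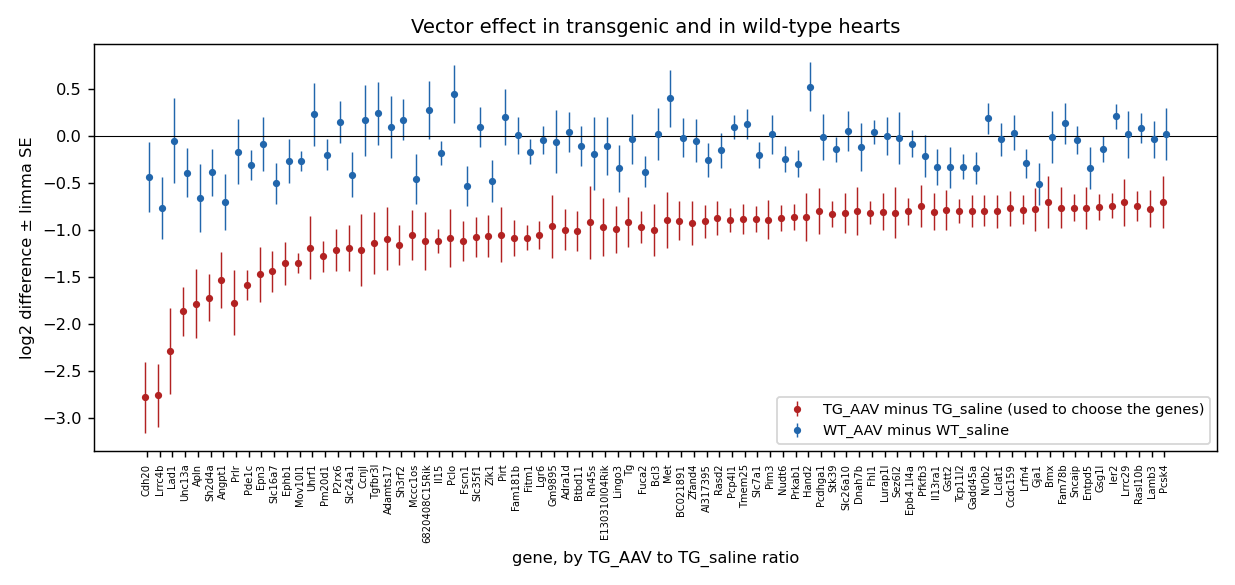
Log2 difference of 81 of the 84 genes (points, with the limma SE as bars) for the vector in transgenic hearts, TG_AAV minus TG_saline (red), which was used to choose the genes, and in wild-type hearts, WT_AAV minus WT_saline (blue). The blue points scatter around 0 with a median of -0.07 over all 84 genes, and none passed the test.

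Genes with the same symbol stem as one of the 84 were tested as relatives that the rule did not choose, 251 in all. Set against the average of the control groups, 35 of them were higher in TG_AAV (13.9%) and 42 lower (16.7%) by limma at an adjusted p of 0.05. The lower ones include Pcdhga4, Pcdhga7, Pcdhga8, Pcdhga9, Pcdhga10 and Pcdhga11. These gamma protocadherins share exons, so their calls may not be separate. Of all tested genes 21.7% passed, 12% higher and 9.69% lower. Without TG_AAV 1, 2 or 3 these counts were 19, 23 and 20 higher and 27, 27 and 26 lower. Against TG_saline alone, 12 rose and 6 fell, beside 3.69% and 2.4% of all tested genes, or 6.09% together. Without TG_saline 1, 2 or 3 the higher counts were 7, 4 and 4, and without TG_AAV 1, 2 or 3 they were 5, 7 and 5. The lower count was 1 without TG_saline 3, and without TG_AAV 1, 2 or 3 it was 3, 2 and 3.

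Of the 6 relatives with the smallest p, 3 rose and 3 fell. Both relatives of Pde1c among them break down cyclic AMP and moved in opposite directions. Pde4a fell (log2 -0.68 ± 0.07, adjusted p = 4.4e-05), with 581, 578 and 535 normalized counts in TG_AAV, 862, 707 and 873 in TG_saline, 938, 1029.9 and 1012 in WT_AAV, and 948, 889.7 and 904 in WT_saline. Pde7a rose (log2 1.11 ± 0.13, adjusted p = 8.19e-05), with 2182, 2377 and 2149.8 normalized counts in TG_AAV, 708, 897 and 789.8 in TG_saline, 1303, 1251 and 1115 in WT_AAV, and 1006, 934 and 1578 in WT_saline. The alpha-1A adrenergic receptor Adra1a, a relative of Adra1d, fell (log2 -1.29 ± 0.16, adjusted p = 0.000117), with 284, 203 and 262 normalized counts in TG_AAV, 499, 399.9 and 501 in TG_saline, 799, 919 and 574 in WT_AAV, and 493, 776 and 671 in WT_saline. In these 3 genes no TG_AAV library overlapped with a control. Adamts20, of the metalloprotease family of Adamts17, rose (log2 2.87 ± 0.28, adjusted p = 2.18e-05), and Pfkfb1, of the family of the glycolysis regulator Pfkfb3, fell (log2 -1.65 ± 0.20, adjusted p = 0.000114). Pfkfb1 did not pass against TG_saline alone (log2 -0.71 ± 0.25, adjusted p = 0.117), having averaged 58.4 in TG_AAV, 94.7 in TG_saline, 236 in WT_AAV and 276 in WT_saline. Unc119, which shares letters but not a protein family with Unc13a, rose (log2 1.38 ± 0.17, adjusted p = 0.000131).

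Known partners of the 84 genes, such as receptors of the ligands, subunits of the same complex and family members, numbered 49 tested. They were picked for their known pairing or family after the 84 had been listed. This list overlaps with the relatives above, and Adra1a, Adra1b, Ephb2, Fhl2, Fhl3 and Fitm2 were called in both. In TG_AAV against the controls 5 rose (10.2%) and 7 fell (14.3%), and without TG_AAV 1 or TG_AAV 3 the total of 12 dropped to 6 and 7. Against TG_saline alone, 1 rose, the phosphodiesterase Pde1a, and 1 fell, Adra1a (2.04% each), beside 3.69% and 2.4% of all tested genes. That total of 2 was 0 without TG_saline 1 or TG_saline 3, 1 without TG_saline 2 or any 1 TG_AAV library, and 5 without WT_saline 3 or WT_AAV 3. Pde1a averaged 139 normalized counts in TG_AAV, 97.4 in TG_saline, 129 in WT_AAV and 131 in WT_saline. It did not pass against the average of the control groups (log2 0.24 ± 0.11, adjusted p = 0.133). Tie2, coded by Tek, and Aplnr, the receptors of Angpt1 and Apln, did not pass against the controls (log2 -0.02 ± 0.08, adjusted p = 0.894, and -0.51 ± 0.25, adjusted p = 0.164). Aplnr averaged 499 normalized counts in TG_AAV, 883 in TG_saline, 516 in WT_AAV and 855 in WT_saline. Against TG_saline alone it did not pass either (log2 -0.82 ± 0.30, adjusted p = 0.137). Adra1a and Adra1b (log2 -0.44 ± 0.12, adjusted p = 0.0169) fell beside Adra1d, although Adra1b lost its call without TG_AAV 1 or TG_AAV 3 and did not pass against TG_saline alone (log2 -0.21 ± 0.14, adjusted p = 0.445). Fhl2, the LIM-domain relative of Fhl1, fell (log2 -0.63 ± 0.11, adjusted p = 0.00192), with 11054, 10839 and 10349 normalized counts in TG_AAV, 14136, 14812 and 11363 in TG_saline, 22175, 17492 and 15194 in WT_AAV, and 20364, 19571 and 16862 in WT_saline. It did not pass against TG_saline alone (log2 -0.31 ± 0.14, adjusted p = 0.22), and neither did Gab1, Prkag2, Stat6 or Ephb2, with adjusted p from 0.0521 to 0.243. Gab1, an adaptor of the growth factor receptor Met, fell (log2 -0.36 ± 0.07, adjusted p = 0.00202). Prkag2, another AMPK subunit than Prkab1, rose (log2 0.35 ± 0.07, adjusted p = 0.00355), and Stat6, which acts below Il13ra1, rose (log2 0.31 ± 0.06, adjusted p = 0.00326). Ephb2 rose where Ephb1 was low (log2 1.23 ± 0.30, adjusted p = 0.0111), a call lost without TG_AAV 1 or TG_AAV 3.

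**Figure D5:**
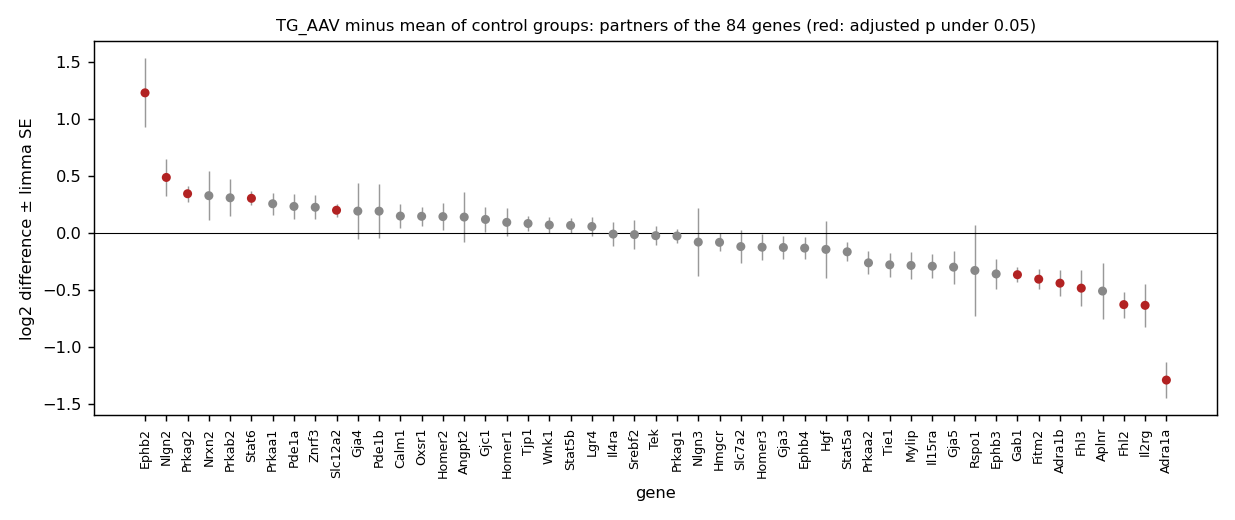
Log2 difference of TG_AAV minus the mean of the 3 control groups for the 49 tested partners of the 84 genes, ordered from the highest to the lowest, with the limma SE as bars and red for an adjusted p under 0.05. The red points lie on both sides of 0, from Ephb2 at 1.23 to Adra1a at -1.29.

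Gene lists for the families of the leading genes, without the 84 themselves, were read in the same comparison, in which 12% of all tested genes were higher and 9.69% lower, and against TG_saline alone, with 3.69% higher and 2.4% lower. A list of synaptic adhesion genes, most of them leucine-rich like Lrrc4b, held 3 of the 84, which are low by the rule and were not counted. Of 12 other genes in that list, 4 rose and none fell. Of these calls 2 were left without TG_AAV 3. Against TG_saline alone 3 rose and none fell, and 1 call was left without TG_saline 1, TG_saline 2, TG_AAV 1 or TG_AAV 3. Flrt1 rose most (log2 3.81 ± 0.30, adjusted p = 4.83e-06), with 225, 470.3 and 395 normalized counts in TG_AAV, 25.1, 23.2 and 20.8 in TG_saline, 25.3, 19.3 and 39.7 in WT_AAV, and 27.8, 11.5 and 32.6 in WT_saline. Slitrk4, Ntng2 and Lrrc4 also rose (log2 1.64, 0.78 and 1.29), of which Lrrc4 did not pass against TG_saline. Ntng2 is a netrin-G and not a leucine-rich protein. Of 10 other cadherins, 2 rose and 3 fell, and the 5 calls dropped to 3 without TG_AAV 1 or TG_AAV 2 and to 2 without TG_AAV 3. Among them Cdh5, the cadherin of endothelium, fell (log2 -0.43 ± 0.08, adjusted p = 0.00198), and Cdh24 rose (log2 1.76 ± 0.39, adjusted p = 0.00627). Against TG_saline alone none of the cadherins rose and only Cdh5 fell (log2 -0.36 ± 0.10, adjusted p = 0.045), a count that was 0 without WT_saline 1 or 2, WT_AAV 2, TG_saline 2 or 3, or any 1 TG_AAV library, 2 without WT_saline 3 and 3 without WT_AAV 1. Cdh24 did not pass there (log2 1.65 ± 0.48, adjusted p = 0.06).

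Of 10 ABCA transporters, the family of Abca4, 4 rose and 2 fell, and 4 rose and 1 fell against TG_saline alone. Abca12, a lipid transporter of skin, fell (log2 -1.60 ± 0.15, adjusted p = 1.41e-05), with 48.9, 58.8 and 36.6 normalized counts in TG_AAV, 112, 98.3 and 118 in TG_saline, 191, 139 and 147 in WT_AAV, and 202, 179 and 159.5 in WT_saline, while Abca5 rose (log2 0.77 ± 0.07, adjusted p = 1.49e-05). Of 21 endocytic receptors and their helpers outside the 84, 7 rose and 4 fell, with Cubn and Lrp1b lower (log2 -2.47 and -2.25) and Sorl1 higher (log2 1.24). Against TG_saline alone 4 rose and 2 fell, and this total of 6 was 3 without TG_saline 1 or 3 and 2 without TG_AAV 2 or 3. Of 20 genes of retinoid handling, 2 rose and 2 fell, and this total of 4 dropped to 2 without WT_saline 1, TG_saline 1, TG_AAV 1 or TG_AAV 3 and to 0 without TG_AAV 2. Against TG_saline alone none passed by limma, with 2 of the 20 at an unadjusted p under 0.05, and 1 passed by edgeR, 2 by DESeq2 and 1 by limma without TG_AAV 3. Of 24 ventricular heart muscle markers, 6 fell and none rose, with Ryr2, the calcium release channel, lowest (log2 -0.76 ± 0.09, adjusted p = 9.5e-05). Ckmt2, Tnni3, Atp2a2, Tnnt2 and Cox6a2 were the others, and Atp2a2 had -0.61 as main value and 0.052 under quantile normalization, where Tnni3 and Tnnt2 did not pass either. Against TG_saline alone 3 of the 24 fell, Ckmt2, Ryr2 and Cox6a2, and Atp2a2 did not pass (log2 -0.43 ± 0.15, adjusted p = 0.113). The count of 3 was 5 without WT_saline 3 or WT_AAV 3, 1 without TG_saline 1, TG_AAV 1 or TG_AAV 2, and 0 without TG_saline 2 or TG_AAV 3.

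By position, 82 of the 84 genes were found in the RefSeq annotation on GRCm38.p6, 2 of them by an older symbol, with 79 coding for protein and 3 for long noncoding RNA. Chromosome 10 held 12, which is 14.6% of those found, against 4.99% of all tested genes. They include AI317395, Btbd11, Fuca2, Gja1, Gstt2, Lingo3, Pcsk4, Slc16a7, Slc26a10, Slc35f1 and Tcp11l2. Chromosomes 1 and 8 held 8 each, and chromosome 13 held 0. Chromosome 10 is named because it held the most, and no test was made on these counts. Pim3 and Mov10l1 on chromosome 15 were the one pair of the 84 with no tested gene between them. Of 156 other tested genes next to one of the 84, 20 were higher (12.8%) and 19 lower (12.2%) in TG_AAV against the controls by limma at an adjusted p of 0.05, beside 12% and 9.69% of all tested genes. Transcripts were taken from the GENCODE annotation, which held 81 of the 84 genes and 12923 of the tested genes. The longest transcript of each had a median length of 3712 bases in the former and 3488 bases in the latter. The median GC content was 51.3% and 49.7%.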

How the data were processed

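Total RNA of ventricles was sequenced in 12 libraries, grouped and numbered as in the sample titles. The values that the authors deposited are normalized counts by gene symbol, a signal unit in which each library's gene reads were divided by its own size factor. Bowtie2 2.0, DESeq2 and the genome build mm9 are named per the submitters' processing notes. What each tool did, which annotation and counter were used and whether strand was kept is not given in the sources used here, so overlapping genes cannot be told apart. In each of the 12 libraries, 100% of positive values were whole multiples of 1 step within 0.01 of a read, which gave back whole reads. Of the 24390 rows, 5583 were at 0 in every library, and 27 symbols had been turned into dates and are not named.

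For tests, normalized counts were taken to log2(value + 1) and fitted by limma 3.58.1 (R 4.3.3), with a variance trend and the 4 group means fitted together. Fold changes on this scale understate those of low genes. The 13030 genes with a mean of 10 or more were tested, two-sided, with Benjamini-Hochberg adjustment over all of them at 0.05. The 84 genes and all gene lists were chosen with earlier results of these data known. Values in every library are given for the 24 genes with the lowest TG_AAV to TG_saline ratio and the 8 with the highest wild-type mean, and other genes are named as examples of a role. A few genes under these rules are not reported here or drawn with a name. Relatives share the letters before the first digit of a symbol, at least 3, with stems over 60 genes left out, and are named by p. Intervals of read ratios are at 95% and cover counting error only. Libraries within a group differed by more than sampling noise, since the chi-square of counts over degrees of freedom was 5.22 to 26.8 for the pairs within groups. The procedure was checked on simulated counts that held no tissue differences between libraries. Its outcome is not given here, so how small a change the vector comparison could find is left unsaid.

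As alternatives, other pseudocounts, low-value filters and scalings were run, and a term for the replicate number, fits of the compared groups alone, each library omitted in turn, and edgeR 4.0.16 and DESeq2 1.42.0 on the recovered reads. Omission of the 3 libraries rich in Myl7, and of the 3 wild-type libraries WT_AAV 2, WT_AAV 3 and WT_saline 3, was added after seeing the data. Motifs were searched in RefSeq promoters on GRCm38.p6, another build than the authors', and no mm9 coordinates are given.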

Additional observations from a re-analysis of the deposited data

Results flagged for a closer look

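By limma's test of the interaction, adjusted over all tested genes, the vector effect differed between transgenic and wild-type hearts for 3 relatives or list genes of the 84. They were looked for only among the relatives with the smallest p, the partners and the list genes that had already passed against the controls. That choice used the same TG_AAV values, and how many of all tested genes passed this test is not given here. For Flrt1 the difference of the log2 effects was 3.58 (SE 0.53, adjusted p = 0.00583), with all 3 TG_AAV libraries above all 9 controls. For Pde7a it was 1.39 (SE 0.23, adjusted p = 0.0125), again with all 3 TG_AAV libraries above all 9 controls. For Pde4a it was -0.64 (SE 0.13, adjusted p = 0.0354), with all 3 TG_AAV libraries below all 9 controls. The same test is not given for the 84 genes, since their choice used it in part.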

How the results depend on the processing

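The number of genes chosen by the rule, 84, was 69 with scaling by library totals and 89 with TMM scaling, with 60 and 83 of them shared. It was 39 at a ratio of at most 0.5, 190 at most 0.7, 43 with TG_saline within 0.9 to 1.1 times wild type, 123 where values may overlap, 63 and 89 at a wild-type mean of 50 and of 10, and 76 to 106 with a library left out. It was 118 without the libraries rich in Myl7 and 100 without WT_AAV 2, WT_AAV 3 and WT_saline 3.

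For the vector alone the 0 called genes became 1 without a filter, 11 with DESeq2, 0 to 2 with a library left out, 4 without the libraries rich in Myl7 and 45 without WT_AAV 2, WT_AAV 3 and WT_saline 3, and none was among the 84 under any alternative run. Relatives in TG_AAV against the controls ran from 26 to 49 lower and 19 to 35 higher with a library left out, and 19 were higher without the libraries rich in Myl7. Against TG_saline they were 17 lower and 22 higher in a fit of those groups only, 1 to 9 lower and 4 to 14 higher with a library left out, 7 higher without the libraries rich in Myl7, and 17 lower and 21 higher without WT_AAV 2, WT_AAV 3 and WT_saline 3.

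The 5 calls among cadherins became 3 at a mean of 50 or more and 2 to 6 with a library left out. Those of retinoid handling, 4, became 0 to 5 and, without the libraries rich in Myl7, 2, and 7 without WT_AAV 2, WT_AAV 3 and WT_saline 3. The 12 partners became 6 to 14 and, without the libraries rich in Myl7, 6. Genes of the synaptic adhesion list ran from 2 to 5 with a library left out, and the 6 ventricular markers became 10 with DESeq2. Against TG_saline the 1 cadherin became 0 without a filter or the libraries rich in Myl7, 2 at a pseudocount of 5, with quantile normalization, edgeR or DESeq2, 5 in a fit of those groups only, 4 without WT_AAV 2, WT_AAV 3 and WT_saline 3, and 0 to 3 with a library left out. The 2 partners became 1 without a filter or the libraries rich in Myl7, 5 with DESeq2, 7 in a fit of those groups only and without the 3 wild-type libraries, and 0 to 5 with a library left out. The 0 genes of retinoid handling became 1 with edgeR, in a fit of those groups only and without the 3 wild-type libraries, 2 with DESeq2, and 0 to 1 with a library left out. The 3 ventricular markers became 1 without a filter or the libraries rich in Myl7, 6 at a mean of 50 or with edgeR, 5 with TMM scaling, 7 with DESeq2 or a fit of those groups only, 8 without the 3 wild-type libraries, and 0 to 5 with a library left out. With a library left out, the 6 endocytic receptors ran from 2 to 7 and the 3 synaptic adhesion genes from 1 to 3.

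Of single genes Atp2a2 changed direction, with -0.61 as reported and 0.052 under quantile normalization.

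Correlations of same-numbered deviations ran from -0.16 to 0.33. They were over 0.1 in all 3 pairs of TG_AAV with WT_AAV (0.21 to 0.33), but not in every pair of TG_AAV with TG_saline or of WT_AAV with WT_saline, and 9 of 12 libraries correlated best with their own number. The block was therefore kept as an alternative. With the replicate block, relatives were 46 lower and 33 higher against the controls and 8 and 13 against TG_saline, partners 14, and the vector alone 0. Against TG_saline the block gave 2 cadherins and 5 ventricular markers. Genes near 20 normalized counts rest on few reads.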
